A study of Homo sapiens with 4 samples.

Results

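The NOTCH genes described here are the receptors NOTCH1, NOTCH2 and NOTCH3, the ligands JAG1, JAG2 and DLL3, the DNA-binding factor RBPJ, and HES1, HES6 and HEY1 of the HES and HEY families. They were chosen by symbol: every probe set annotated to exactly 1 of the 10 symbols was taken, which gave 34 of the 49293 probe sets for cellular transcripts. The array covered 18244 genes by such single-symbol probe sets. For a comparison by gene each gene was represented by its brightest probe set, and genes whose brightest probe set averaged under an intensity of 61.4 (the 40th percentile) were left out. This left 10946 genes tested, among them 9 of the 10 NOTCH genes; JAG1 was too dim.

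The cells were Kelly cells, an established human neuroblastoma line, in a form that tolerates TAE684, which blocks the ALK kinase. Both groups were grown in 1 µM TAE684, took up virus for 24 h in polybrene at 8 µg/ml and were selected in puromycin for 48 h. The 2 shBORIS samples received a short hairpin against BORIS, the protein of the CTCFL gene and a germ-line relative of the genome-organising factor CTCF. The 2 shLUC samples received a hairpin against luciferase and are the control. The labels call each pair biological duplicates. The labels name a single hairpin against BORIS, so effects of that hairpin and of less BORIS cannot be told apart. The sources used here do not say whether the resistant line was 1 clone.

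NOTCH receptors are single-pass membrane proteins that bind Jagged (JAG) and Delta-like (DLL) ligands on a neighbouring cell. Binding lets ADAM proteases and then gamma-secretase cut the receptor, and the freed intracellular part joins RBPJ on DNA, with Mastermind-like proteins (MAML), to switch on targets such as HES1 and HEY1. HES1 and HEY1 are repressors that hold back proneural factors in the developing nervous system, and in neuroblastoma NOTCH signalling is known for its part in the shift between adrenergic and mesenchymal cell states.

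RBPJ binds DNA at the core letters TGGGAA, and the HES1 promoter is a textbook target. The core was searched in 12 RefSeq promoter entries (build GRCh38.p14) of 8 of the 10 members. The promoters of HES1 and RBPJ are shown because, among these 8, they had an entry with the core. It was sought on either strand in the 250 bases before the start. The remaining members were not searched, so their promoters may also hold the core. Capitals mark the core, which reads TTCCCA where it lies on the other strand. Only these exact letters were searched, so RBPJ sites with other letters are not marked.
HES1, chr3:194135898-194136147, plus strand: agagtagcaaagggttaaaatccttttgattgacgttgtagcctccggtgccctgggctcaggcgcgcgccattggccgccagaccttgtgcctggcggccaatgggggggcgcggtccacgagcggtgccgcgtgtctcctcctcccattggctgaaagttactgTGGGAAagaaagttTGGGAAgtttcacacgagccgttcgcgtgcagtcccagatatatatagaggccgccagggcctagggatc
RBPJ, chr4:26319496-26319745, plus strand: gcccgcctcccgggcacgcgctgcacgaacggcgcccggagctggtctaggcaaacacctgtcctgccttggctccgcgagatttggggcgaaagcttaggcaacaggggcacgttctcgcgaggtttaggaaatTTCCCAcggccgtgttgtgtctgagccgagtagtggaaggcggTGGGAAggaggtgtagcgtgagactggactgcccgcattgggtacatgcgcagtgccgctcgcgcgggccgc
In HES1 both cores ran along the plus strand and began 84 and 70 bases before the start. In RBPJ, where 1 of the 5 entries held the core, they began 115 and 72 bases before the start, the farther one on the opposite strand. Of all 35116 promoters of the same length, 20.8% held at least 1 such core and 2.9% held several, so the letters alone are common and a match is only a description.

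On the deposited scale most transcripts were brighter on the shBORIS arrays. The median intensity of cellular probe sets was 80.8 and 84.5 with shBORIS, against 64.4 and 60.4 with shLUC. The median of the ERCC spike-in probe sets was 25.5 and 25.8 with shBORIS and 24.8 and 24.4 with shLUC. Cellular probe sets of that brightness (18.8 to 26.3) had a median deposited difference of only 0.06. The spike-in median therefore cannot show whether brighter probe sets share 1 scale. The median tested gene was 0.48 higher on the log2 scale with shBORIS, so each difference is given as deposited and on a centred scale, on which the median tested gene of every array is 0. Both are differences of log2(intensity + 16), shBORIS minus shLUC, which understates changes of dim probe sets. CTCFL, the target of the hairpin, read 701 and 737 with shBORIS and 3563 and 3376 with shLUC at its brightest probe set, and 5 of its 7 probe sets fell as deposited. Log2 values correlated across genes at 0.9968 within the shBORIS pair, at 0.9963 within the shLUC pair and at 0.960 to 0.961 between the groups. The ratio of 3' to 5' signal of ACTB, a measure of RNA integrity, was 1.36 and 1.32 with shBORIS and 1.46 and 1.38 with shLUC. Its part in the results was not tested. In such bulk RNA, fewer cells of a type and less RNA per cell cannot be told apart.

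On the centred scale DLL3, RBPJ and HEY1 lay above the median gene and the other 6 tested members lay below it, with both ligands and HES or HEY genes on each side. Of the 9 tested members 3 rose (DLL3, RBPJ and HEY1) and 4 fell (NOTCH1, NOTCH3, JAG2 and HES1), while NOTCH2 and HES6 did not pass the test. Over all genes tested 30.2% rose and 28.9% fell on this scale, so counts of this size in 9 genes do not set the NOTCH genes apart. The median difference of the 9 was -0.20, beside 0.00 over all genes tested. As deposited, 5 members were higher (NOTCH2, DLL3, RBPJ, HES6 and HEY1) and 1 was lower (NOTCH3), beside 77.2% and 4.6% of all genes, and the members' median was 0.28 beside 0.48. Of the 9 tested members only NOTCH3 was lower on both scales, and DLL3, RBPJ and HEY1 were higher on both. P-values are from limma's moderated test, adjusted over all genes or all probe sets tested, at a threshold of 0.05. With 2 arrays a group, a two-sided exact permutation test reaches 0.333 at best, so the limma values borrow their spread from the other genes. As deposited the spread was that of genes of like brightness alone, and a gene's own duplicates had no weight. On the centred scale they had some. The values measure no more than the spread between duplicates on these 4 arrays.

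**Figure D1:**
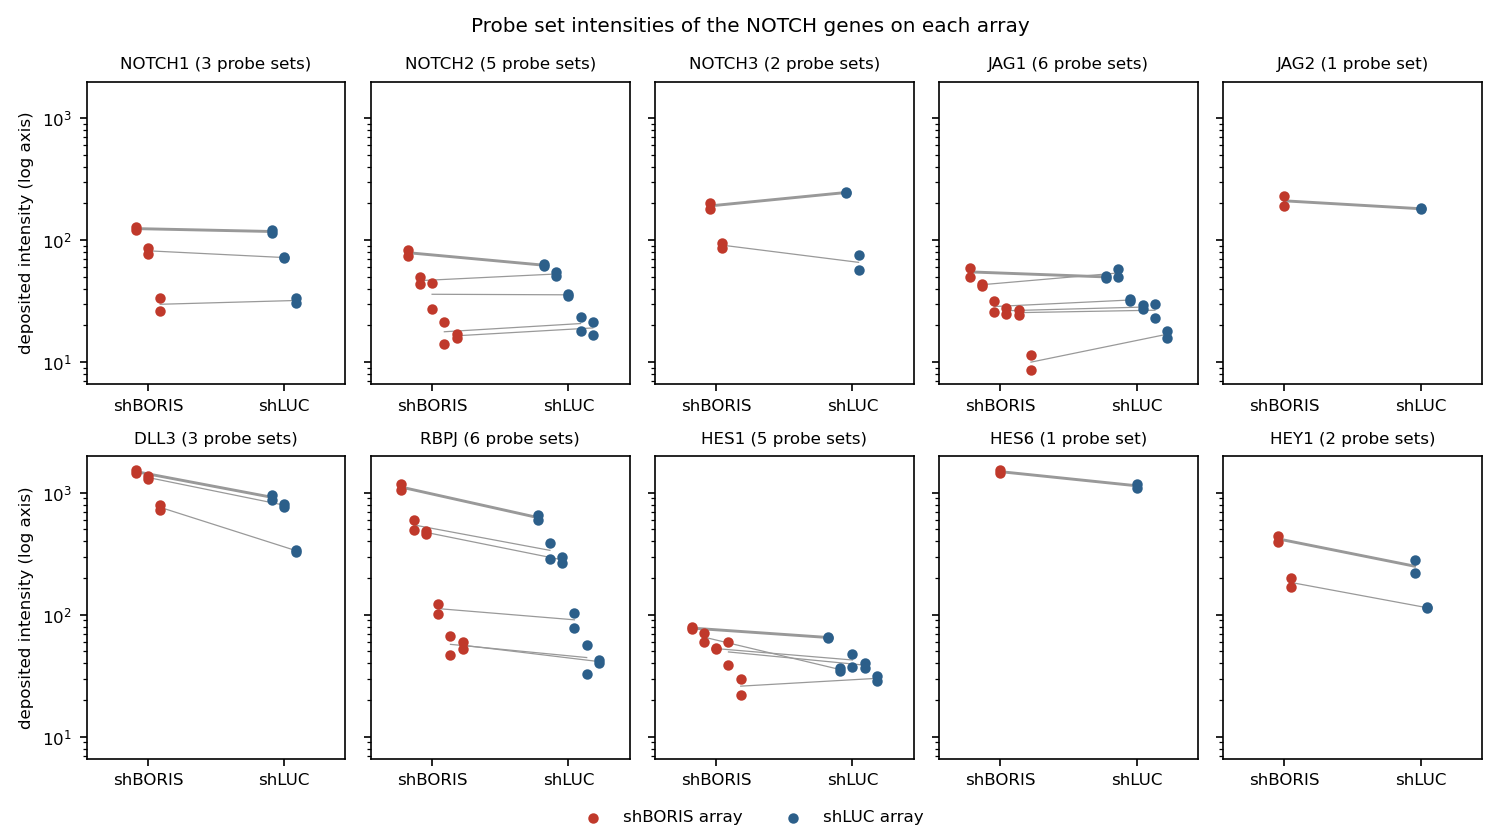
Deposited intensity (log axis) of each of the 34 NOTCH probe sets on each array, 1 panel a gene, with shBORIS arrays in red on the left and shLUC arrays in blue on the right. Each line joins the group means of 1 probe set and the thick line is the brightest probe set of the gene. All 3 DLL3 probe sets lie higher on the shBORIS arrays, and the brighter NOTCH3 probe set lies lower there.

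NOTCH3, the receptor best known from vascular smooth muscle, gave the largest centred difference of the 9 tested genes. Its brightest probe set read 180.0 and 200.9 with shBORIS, against 242.8 and 247.8 with shLUC. Both shBORIS arrays were below both shLUC arrays. The means were 190.5 ± 14.8 with shBORIS and 245 ± 3.53 with shLUC (SD, n = 2 each), a log2 difference of -0.34 as deposited (SE 0.11; limma adjusted p = 0.00223). Centred, the probe set lay at -0.65 and -0.59 with shBORIS and at 0.13 and 0.27 with shLUC. This centred difference of -0.82 (SE 0.07; limma adjusted p = 9.27e-06) stood at percentile 3.04 of all genes tested, counted from the lowest.

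The other NOTCH3 probe set did not follow. It read 86.5 and 95.01 with shBORIS, against 74.8 and 56.4 with shLUC, so the arrays did not overlap, but in the opposite direction. It was 0.40 higher as deposited (SE 0.11; limma adjusted p = 9.91e-04) and at -0.08 on the centred scale (95% limits -0.29 to 0.13; limma adjusted p = 0.465). The fall of NOTCH3 is therefore that of its brightest probe set. With the mean of both probe sets the deposited difference was 0.03 (limma adjusted p = 0.779), though the centred one stayed lower at -0.41. Without shBORIS replicate 1 the deposited difference was -0.27 (limma adjusted p = 0.0634). NOTCH3 lies at chr19:15159038-15200995 (GRCh38.p14). The sources used here do not say which exons or transcripts the probe sets read.

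NOTCH1, the receptor most studied in neural progenitors and T cells, was nearly level on the deposited scale and lower on the centred scale. Its brightest probe set read 121 and 127 with shBORIS and 114 and 121 with shLUC. The lower shBORIS array and the higher shLUC array were almost equal. The deposited difference was 0.07 (SE 0.11; limma adjusted p = 0.547) and the centred one -0.41 (SE 0.08; limma adjusted p = 0.00206). The other probe sets read 85.7 and 77.5 with shBORIS against 71.1 and 72.6 with shLUC, and 26.0 and 33.5 with shBORIS against 33.7 and 30.2 with shLUC. All 3 were lower on the centred scale, by -0.33 to -0.55, beside 46.1% of all cellular probe sets, and none passed the test as deposited. After quantile normalization of all probe sets, chosen after seeing the data, only the brightest passed (-0.37; limma adjusted p = 0.00632). The others were at -0.20 each (limma adjusted p = 0.136 and 0.192). NOTCH1 lies at chr9:136494433-136546048.

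NOTCH2, a close relative of NOTCH1 with broad expression, was dim on this array, and 4 of its 5 probe sets were under the intensity of 61.4. The brightest read 74.1 and 83.6 with shBORIS and 61.1 and 63.3 with shLUC, with no overlap. It was 0.28 higher as deposited (SE 0.11; limma adjusted p = 0.0194) and at -0.20 on the centred scale (95% limits -0.40 to -0.00; limma adjusted p = 0.0785). The deposited call was lost without shBORIS replicate 2 (0.20; limma adjusted p = 0.19) and without shLUC replicate 1 (0.26; limma adjusted p = 0.073). The 4 dimmer probe sets were lower on the centred scale, by -0.49 to -0.61, and differed by -0.14 to -0.01 as deposited, where none passed the test. Of all cellular probe sets under the intensity of 61.4, 68.9% were lower on the centred scale, so these falls do not set NOTCH2 apart. A further 3 probe sets are annotated to NOTCH2 and its partial copy NOTCH2NLA together and were left out. Signal from such copies cannot be told apart, so NOTCH2 is uncertain.

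Among the ligands, DLL3 rose on both scales at every probe set. DLL3 is an inhibitory ligand that acts inside the cell that makes it and is known from neuroendocrine tumours. Its brightest probe set read 1444 and 1536 with shBORIS, against 956 and 878 with shLUC. A further probe set read 1286 and 1379 with shBORIS, against 813 and 768 with shLUC. The last read 728 and 789 with shBORIS, against 328.7 and 339.6 with shLUC. Every shBORIS array was above every shLUC array at each of the 3.

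The brightest DLL3 probe set averaged 1489.8 ± 65.4 with shBORIS and 917 ± 55.3 with shLUC (SD, n = 2 each). It was 1.61-fold higher as deposited (log2 0.69, SE 0.11; limma adjusted p = 1.63e-09) and 0.21 higher on the centred scale (SE 0.05; limma adjusted p = 0.00384). The last probe set showed the largest rise of the 34, 2.21-fold as deposited (log2 1.14, SE 0.11) and 0.67 on the centred scale (SE 0.07; limma adjusted p = 4.05e-06). The second rose by 0.74 as deposited and by 0.26 on the centred scale (limma adjusted p = 0.00143). After quantile normalization between arrays the gene's difference was 0.12 (limma adjusted p = 0.0566). DLL3 lies at chr19:39498947-39508469. Its promoter was not among those searched for the RBPJ core.

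JAG2, a Jagged ligand of limb and thymus development, had 1 probe set. It read 189.8 and 229 with shBORIS and 178.9 and 182.0 with shLUC, and the groups did not overlap. The deposited difference was 0.19 (SE 0.11; limma adjusted p = 0.0848) and the centred one -0.28 (SE 0.08; limma adjusted p = 0.0111). The centred call was lost under 4 of 12 alternatives, among them without shBORIS replicate 1 (limma adjusted p = 0.0763) and without shLUC replicate 2 (limma adjusted p = 0.0556), and the deposited call was gained without shBORIS replicate 1 (0.32; limma adjusted p = 0.0235).

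JAG1, the Jagged ligand mutated in Alagille syndrome, was not testable as a gene, since all 6 of its probe sets were dim, at intensities of 8.55 to 59.5 over the 4 arrays. The brightest read 59.5 and 50.1 with shBORIS and 50.6 and 49.1 with shLUC, and the groups overlapped. In the fit over all probe sets all 6 were lower on the centred scale, by -0.38 to -0.82. As deposited they differed by -0.34 to 0.10, and 1 passed the test: it read 8.55 and 11.4 with shBORIS and 15.7 and 18.1 with shLUC (limma adjusted p = 0.0123). Of all cellular probe sets under the intensity of 61.4, 68.9% were lower on the centred scale, so the count of centred falls does not single JAG1 out. All 6 lay below the medians of their own brightness deciles, by -0.10 to -0.44. After quantile normalization, chosen after seeing the data, those at -0.47 (limma adjusted p = 0.00208) and -0.36 (limma adjusted p = 0.0317) passed the test. The others did not, and 14.5% of all cellular probe sets fell there.

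RBPJ, the DNA-binding factor through which NOTCH receptors act on genes, was brighter with shBORIS. Its brightest probe set read 1046 and 1175 with shBORIS, against 653 and 599 with shLUC. The groups were well apart. The means were 1111 ± 90.7 with shBORIS and 626 ± 38.7 with shLUC (SD, n = 2 each), 1.75-fold higher as deposited (log2 0.81, SE 0.11; limma adjusted p = 4.5e-12). RBPJ rose 1.26-fold on the centred scale (log2 0.33, SE 0.05; limma adjusted p = 4.57e-04).

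The 6 RBPJ probe sets differed among themselves. All 6 were higher as deposited, by 0.27 to 0.81, and 2 of them rose on the centred scale. The second to rise read 460.2 and 486 with shBORIS, against 299 and 264 with shLUC, a centred difference of 0.24 (limma adjusted p = 0.00636). One that read 495 and 594 with shBORIS, against 389 and 285 with shLUC, was at 0.20 on the centred scale (limma adjusted p = 0.0713). The 3 dimmest probe sets lay at -0.21 to -0.14 on the centred scale, and none of them passed the test. Among these, one that read 101 and 123 with shBORIS, against 103 and 78.5 with shLUC, and one that read 67.4 and 46.9 with shBORIS, against 56.3 and 32.8 with shLUC, overlapped between the groups as deposited. With the mean of all 6 the gene's centred difference was 0.08 (limma adjusted p = 0.307). RBPJ has processed pseudogenes of near-identical sequence, so its probe sets cannot be assigned to the gene with certainty. RBPJ lies at chr4:26105449-26435131, and the promoter shown above is that of 1 of its annotated starts.

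HES1, a repressor and the best known NOTCH target, was dim, and only 1 of its 5 probe sets reached the intensity of 61.4. The brightest read 76.0 and 79.5 with shBORIS and 65.8 and 64.4 with shLUC, with no overlap. Its deposited difference was 0.21 (SE 0.11; limma adjusted p = 0.0783) and its centred difference -0.27 (SE 0.08; limma adjusted p = 0.0198). The centred call was lost under 6 of 10 alternatives, among them leaving out shBORIS replicate 2 (limma adjusted p = 0.0675) or shLUC replicate 2 (limma adjusted p = 0.117) and quantile normalization (-0.09; limma adjusted p = 0.351).

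A second HES1 probe set gave another picture on the deposited scale. It read 60.1 and 71.0 with shBORIS, against 36.3 and 34.7 with shLUC. Both shBORIS arrays were far above both shLUC arrays, a deposited difference of 0.66 (SE 0.11; limma adjusted p = 2.82e-08). Centred, it was at 0.18 (95% limits -0.03 to 0.39; limma adjusted p = 0.118), and after quantile normalization, an alternative chosen after seeing the data for probe sets, it rose by 0.43 (limma adjusted p = 0.00467). The other 3 read from 21.97 to 60.2 with shBORIS and from 28.6 to 47.8 with shLUC, and their centred differences were -0.62 to -0.23, with the dimmest passing the test. No direction for HES1 held over its probe sets and both scales. The promoter shown above, with 2 matches to the RBPJ core, is the one at chr3:194135898-194136147, just before the gene at chr3:194136148-194138732.

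HEY1, a HES-related repressor and NOTCH target of heart and vessel development, rose on both scales at its brightest probe set. It read 439 and 397 with shBORIS, against 280.1 and 219.8 with shLUC. The groups did not overlap, though the shLUC arrays differed from each other by more than the shBORIS arrays. The means were 418 ± 29.9 with shBORIS and 249.9 ± 42.6 with shLUC (SD, n = 2 each), 1.64-fold higher as deposited (log2 0.71, SE 0.11; limma adjusted p = 4.98e-10). The centred difference was 0.24 (SE 0.09; limma adjusted p = 0.0489), close to the threshold. The call was lost under 5 of 12 alternatives, among them leaving out shBORIS replicate 1 (limma adjusted p = 0.294) or shLUC replicate 2 (limma adjusted p = 0.263). The other HEY1 probe set read 169.6 and 199 with shBORIS, against 116 and 113 with shLUC, 0.62 higher as deposited and 0.14 on the centred scale (95% limits -0.03 to 0.31; limma adjusted p = 0.141). The HEY1 promoter was not among those searched for the RBPJ core.

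HES6, a family member that opposes HES1 and favours neuronal differentiation, had 1 bright probe set. It read 1441 and 1535 with shBORIS, against 1185 and 1095 with shLUC. The groups did not overlap. HES6 was 1.30-fold higher as deposited (log2 0.38, SE 0.11; limma adjusted p = 8.28e-04), beside 0.48 for the median gene. Its centred difference was -0.10 (95% limits -0.20 to 0.01; limma adjusted p = 0.112). Centring on all cellular probe sets turned the sign (0.05; limma adjusted p = 0.507), while quantile normalization made it a fall (-0.18; limma adjusted p = 0.00868). HES6 lies at chr2:238238267-238240038.

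**Figure D2:**
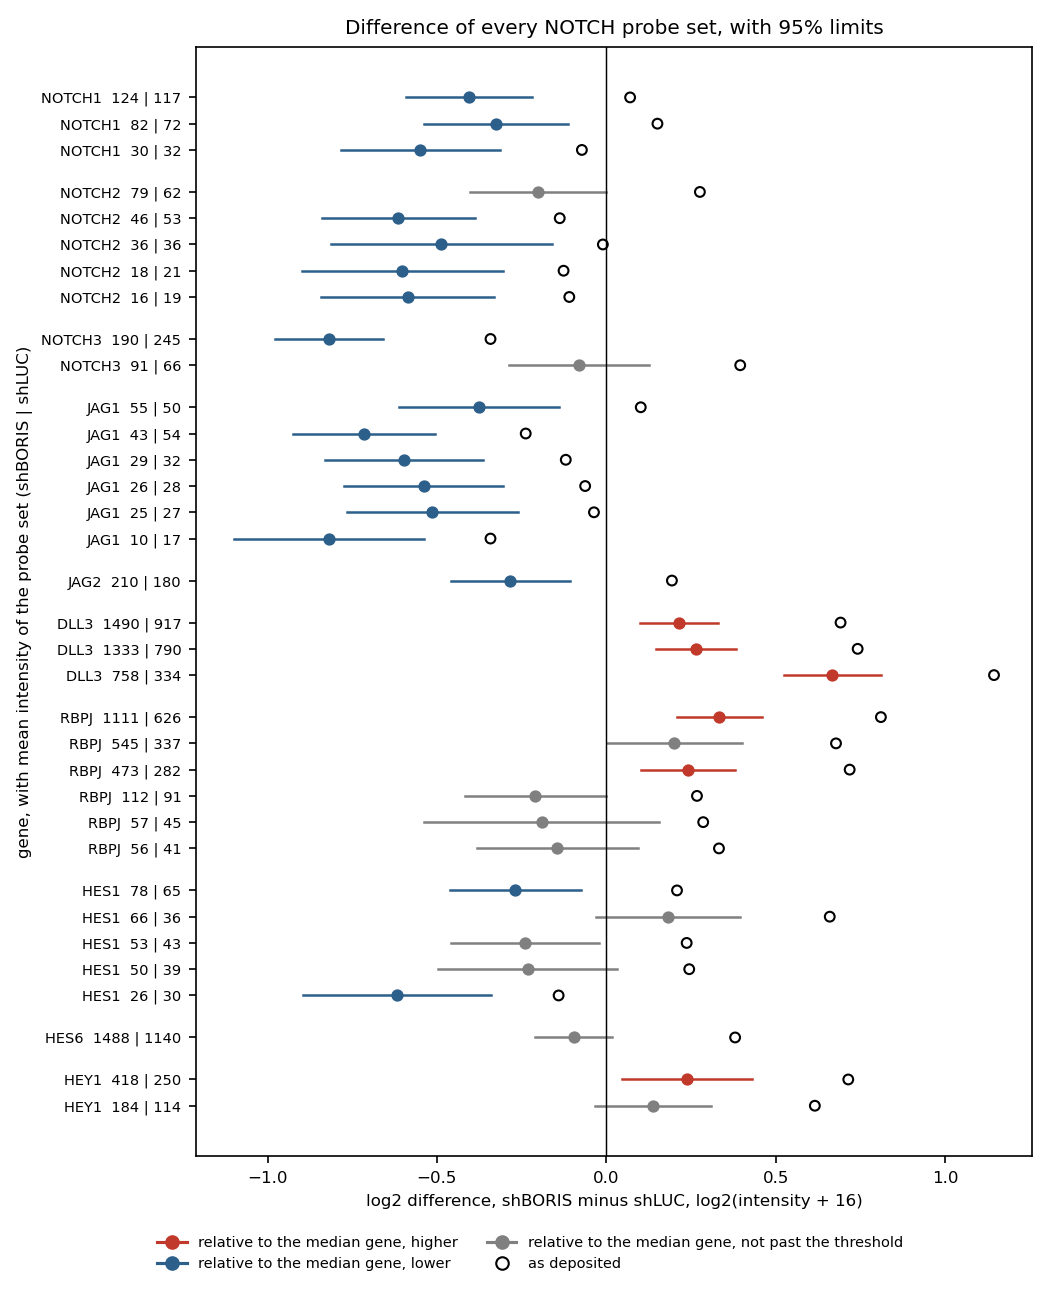
Log2 difference, shBORIS minus shLUC, of each of the 34 NOTCH probe sets, on the centred scale (filled points, relative to the median gene, with 95% limits of the limma fit over all probe sets) and as deposited (open circles). Numbers beside the gene are the mean intensities with shBORIS and shLUC. NOTCH1, NOTCH2 and JAG1 probe sets all lie left of 0 on the centred scale, the 3 DLL3 probe sets lie right of it, and those of RBPJ and HES1 fall on both sides.

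Over the 34 probe sets, 15 were higher and 2 lower as deposited, beside 51.8% and 3.22% of all cellular probe sets. On the centred scale 6 rose and 17 fell, beside 16.5% and 46.1% of all. The excess of falls on the array as a whole lay in dim probe sets: of the 22604 under the intensity of 61.4, 68.9% were lower and 0.69% higher, while of the 26689 at or over it 26.8% were lower and 29.8% higher. The NOTCH probe sets divided alike. Of their 17 dim probe sets 12 were lower and none higher, with a median centred difference of -0.54 beside -0.37 for all dim ones. Of their 17 brighter ones 5 were lower and 6 higher, with a median of -0.08 beside 0.01. As deposited the medians were -0.06 for the dim and 0.40 for the brighter NOTCH probe sets, beside 0.11 and 0.49 for all.

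Members were also set beside genes of like brightness, by decile of the tested genes. The brightest NOTCH3 probe set was in the fifth, which had a median centred difference of 0.02, and lay at -0.84 from it. The other NOTCH3 probe set lay at -0.01 from the median of its own decile of probe sets. NOTCH1 lay at -0.34 and JAG2 at -0.30 from the medians of their deciles. DLL3, RBPJ and HEY1 lay 0.23, 0.19 and 0.18 above theirs. NOTCH2, HES1 and HES6 were nearest to genes of the same brightness, at -0.03, -0.10 and -0.08. The array's background probe sets, which match no transcript, were level between the groups at few G and C bases, with 14.3 and 14.6 for shBORIS and 14.3 and 14.9 for shLUC at 13 G or C bases. At 22 they read 182 and 200.4 with shBORIS, against 136 and 133 with shLUC, 0.46 higher on the log2 scale. The base composition of the NOTCH probes is not in the sources used here, and the part of background in the NOTCH differences was not tested.

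**Figure D3:**
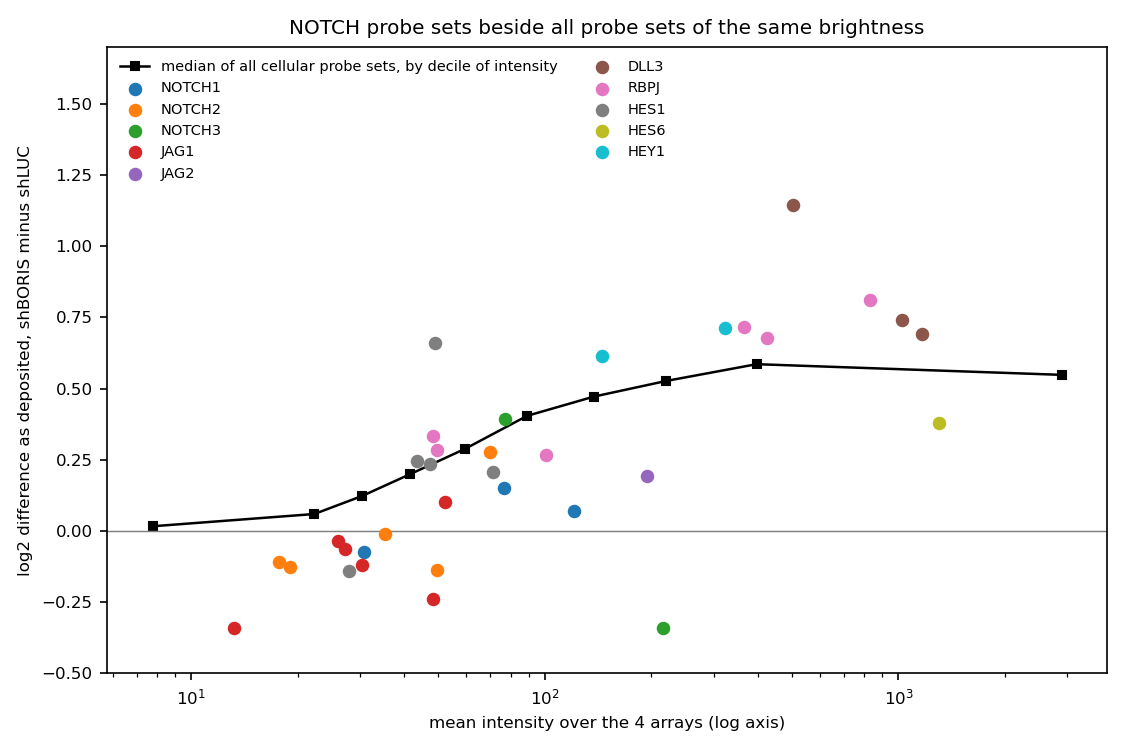
Deposited log2 difference, shBORIS minus shLUC, of each NOTCH probe set against its mean intensity over the 4 arrays (log axis), with the median of all cellular probe sets in each intensity decile as a black line. The line climbs from 0.02 in the dimmest decile to 0.59 in the ninth. The brightest NOTCH3 probe set, at -0.34, lies farthest below it and the dimmest of the 3 DLL3 probe sets, at 1.14, farthest above.

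The rest of the pathway was read from 95 further genes listed by role, of which 87 were on the array with a symbol of their own and 66 were tested. As deposited 50 were higher and 7 lower, with a median of 0.41, where 77.2% of all genes tested were higher and 4.6% lower, with a median of 0.48. On the centred scale 17 rose, 21 fell and 28 did not pass the test, with a median of -0.07 beside 0.00 for all genes tested. These shares, too, are near the background of 30.2% and 28.9%.

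Of 6 other receptors and ligands tested, 5 fell on the centred scale and none rose, with a median of -0.36, whereas as deposited 2 were higher, none was lower and the median was 0.11. Beside this and the role lists below, 30.2% of all genes tested rose and 28.9% fell on the centred scale. As deposited 77.2% were higher and 4.6% lower. EGFL7, a secreted NOTCH ligand-like protein of vessels, read 264 and 257 with shBORIS and 325 and 289 with shLUC (centred -0.70, SE 0.07; limma adjusted p = 1.8e-05). DLL1, a Delta ligand, read 186.4 and 201 with shBORIS and 222 and 186.4 with shLUC, overlapping as deposited and at -0.55 on the centred scale. CNTN1, a neural adhesion protein that binds NOTCH, was at -0.39. DLK1, a Delta-like protein that lacks the receptor-binding domain, was at -0.33, but at -0.04 after quantile normalization (limma adjusted p = 0.271). As deposited none of these 4 passed the test.

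Receptor maturation and cleavage differed little as a group, with 1 rise and 3 falls among 13 genes and a median of -0.07 on the centred scale. As deposited 11 were higher and 1 lower. After centring on all cellular probe sets 4 rose and 2 fell, where 45.6% of all genes tested rose and 17.4% fell. MFNG, a Fringe enzyme that adds sugars to the receptor, read 112 and 106 with shBORIS, against 152 and 136 with shLUC, and fell on both scales (deposited -0.35, limma adjusted p = 0.00156; centred -0.83, SE 0.08, limma adjusted p = 1.66e-05). ADAM17, a protease that can cut the receptor, fell by 0.49 on the centred scale and was level as deposited (-0.02). The gamma-secretase subunit APH1A rose by 0.32 on the centred scale and by 0.79 as deposited. Another subunit, NCSTN, was higher by 0.30 as deposited and lower on the centred scale (-0.17; limma adjusted p = 0.0255), a call that was lost when arrays were centred on all cellular probe sets (-0.03).

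Endocytosis and turnover genes were mixed, with 4 rises and 3 falls among 14 and a median of 0.03 on the centred scale, and 11 higher and 1 lower as deposited. After centring on all cellular probe sets 7 rose and 3 fell, with a median of 0.18. Over all genes tested 45.6% rose and 17.4% fell there, with a median of 0.15. DTX4, a Deltex ubiquitin ligase that acts on the receptor, fell on both scales. It read 49.4 and 40.4 with shBORIS, against 84.0 and 89.8 with shLUC, with a difference of -0.76 as deposited and -1.24 on the centred scale (SE 0.12; limma adjusted p = 1.59e-05). Its relative DTX3 rose by 0.42 on the centred scale and EPN1, an endocytic adaptor, by 0.36. NUMBL, a NOTCH antagonist of neural progenitors, was at -0.47 on the centred scale and 0.01 as deposited.

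The nuclear partners of RBPJ contained the most rises. On the centred scale 10 of 19 tested rose and 2 fell, beside 30.2% and 28.9% of all genes tested. Their median was 0.16. In brightness deciles 8 and 9 of the tested genes, 45.9% and 48.4% rose, with medians of 0.13 and 0.14. The list was not matched for brightness, so its rises cannot be set apart from those of bright genes. As deposited 18 of 19 were higher, beside 77.2% of all genes. After quantile normalization 6 rose and 2 fell, beside 29.4% and 25.9% of all. After centring on all cellular probe sets 14 rose and 1 fell, beside 45.6% and 17.4%. MAML1, the coactivator that clasps the NOTCH and RBPJ complex, read 958 and 1085 with shBORIS, against 485 and 446 with shLUC. The groups were far apart, with MAML1 2.15-fold higher as deposited (log2 1.11) and 0.63 higher on the centred scale (SE 0.06; limma adjusted p = 1.09e-05). CREBBP, a histone acetyltransferase that MAML proteins recruit, rose by 0.53 on the centred scale and SNW1, an RBPJ-binding coregulator, by 0.44. KAT2B, another acetyltransferase, went the other way. It read 75.7 and 71.3 with shBORIS, against 147 and 119 with shLUC (deposited -0.73; centred -1.21, SE 0.09; limma adjusted p = 4.51e-06).

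Of 9 other HES, HEY and direct target genes, 2 rose and 4 fell on the centred scale, with a median of -0.16, while as deposited 7 were higher, 2 were lower and the median was 0.31. After centring on all cellular probe sets 2 rose and 2 fell, where 45.6% of all genes tested rose and 17.4% fell. CCND1, cyclin D1, which many pathways besides NOTCH control, read 1860.2 and 2021 with shBORIS, against 706 and 712 with shLUC (centred 0.95, SE 0.06; limma adjusted p = 1.2e-06). IGF1R, a growth factor receptor, fell by 0.92 and HES7, the oscillating repressor of the segmentation clock, by 0.86 on the centred scale, and both also fell as deposited. NRARP, a feedback inhibitor and NOTCH target, was higher by 0.24 as deposited and at -0.24 on the centred scale (limma adjusted p = 0.00426), which was lost on centring on all cellular probe sets (-0.09).

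Proneural genes, a class that HES repressors hold down, were mostly lower: 4 of 5 tested fell on the centred scale, none rose, and the median was -0.52. As deposited 1 was higher and 2 were lower, with a median of -0.04. Over all genes tested 28.9% fell on the centred scale and 4.6% were lower as deposited. NEUROG2, a proneural factor of sensory neurons, read 169.2 and 187 with shBORIS, against 230.1 and 208 with shLUC. NHLH1, a helix-loop-helix factor of young neurons, read 124 and 133 with shBORIS, against 163 and 153 with shLUC. These were lower on both scales, at -0.28 and -0.27 as deposited and -0.76 and -0.75 on the centred scale. INSM1, a neuroendocrine zinc-finger factor, and NEUROG1 were at -0.51 and -0.52 on the centred scale and near level as deposited, at -0.03 and -0.04.

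**Figure D4:**
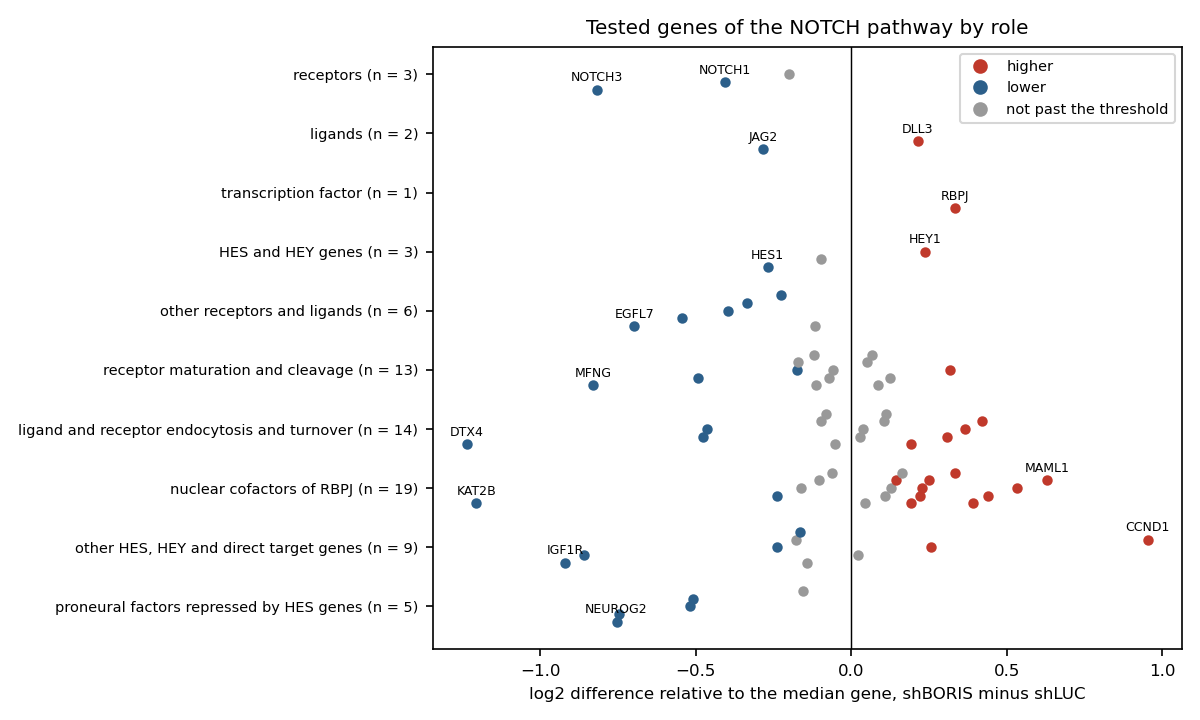
Centred log2 difference (relative to the median gene), shBORIS minus shLUC, of every tested NOTCH pathway gene, 1 point a gene, by role; the top 4 lines hold the 9 tested members and colours mark limma calls. Nuclear cofactors of RBPJ lie mostly right of 0 (median 0.16), and other receptors and ligands (median -0.36, though 0.11 as deposited) and proneural factors (median -0.52) lie left of it.

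Kelly cells were checked against markers of neuroblastoma states and of other cell types, each list summed over the brightest probe sets of its genes. Adrenergic markers had summed intensities of 23956 and 24722 with shBORIS and 17961 and 17175 with shLUC. The widest gap among them was that of CHGA, at 6272 and 6239 with shBORIS and 2292 and 1974 with shLUC, so the sums do not describe the list evenly. Of the 11, 10 had a probe set of their own and were tested: 4 rose and 6 fell after centring, from -0.65 for PHOX2A to 1.07 for CHGA. As deposited 6 were higher and none lower (median 0.31). Of 15 mesenchymal markers 9 were tested, of which 2 rose and 6 fell after centring, with a median of -0.56, while 3 were higher and 4 lower as deposited (median -0.08). Over all genes tested 30.2% rose and 28.9% fell after centring, and 77.2% were higher and 4.6% lower as deposited. The summed intensity of the mesenchymal markers was 4787 and 5491 with shBORIS and 5350.1 and 5019 with shLUC. The centred differences ran from -1.68 for VIM, the mesenchymal filament protein, to 0.56 for SNAI2, a mesenchymal transcription factor, and the other riser was TEAD1, a partner of YAP1, at 0.52. VIM read 180.2 and 212 with shBORIS, against 488 and 457 with shLUC, and SNAI2 read 206.1 and 234 with shBORIS, against 103 and 95.3 with shLUC. PRRX1, a defining mesenchymal factor, was too dim to test, at 31.1 and 30.4 with shBORIS and 28.0 and 26.2 with shLUC.

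Of 8 Schwann cell and glial markers on the array 2 were tested. NGFR, a neurotrophin receptor, fell on both scales (centred -0.77, deposited -0.30), and GFAP, a glial filament protein, was higher as deposited (0.33) and at -0.14 after centring. The summed intensity of the 8 was 556 and 628 with shBORIS and 713 and 644 with shLUC. The defining marker SOX10 was too dim to test, at 61.9 and 80.2 with shBORIS and 52.1 and 42.2 with shLUC. ERBB3, a neuregulin receptor of Schwann cells, was also too dim to test and lay the other way, at 23.4 and 22.7 with shBORIS and 74.3 and 66.2 with shLUC. Of 12 fibroblast, endothelial and immune markers 4 were tested, of which 3 fell on the centred scale and 1 was higher and 1 lower as deposited, with sums of 755 and 773 with shBORIS and 714 and 653 with shLUC. The endothelial marker CDH5 read 28.5 and 26.6 with shBORIS and 29.2 and 24.8 with shLUC, and the leukocyte marker PTPRC 11.8 and 10.8 with shBORIS and 15.9 and 12.2 with shLUC. No marker was listed at 0. The part of these marker differences in the NOTCH differences was not tested.

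By the distance between centred log2 profiles over the 4 arrays, after each gene's mean was removed, HES1 was nearest to RPL22, NUAK2 and TPRG1L, at distances of 0.009, 0.011 and 0.013. NOTCH3 was nearest to GSTZ1, CA4 and CPNE1, at 0.028, 0.038 and 0.041. Among the members, DLL3 and RBPJ were each other's nearest, at 0.131, and HEY1 was nearest to DLL3, at 0.22. HES1 and NOTCH2 were also each other's nearest, at 0.104, while the nearest member to NOTCH3 was NOTCH1 at 0.419, the largest such distance. With 4 arrays in 2 groups these distances mostly restate the group difference.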

How the data were processed

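Expression was measured on 4 Affymetrix PrimeView arrays, 2 of shBORIS and 2 of shLUC cells, labelled from 100 ng of total RNA with ERCC spike-in RNA added, per the labels' protocols. The values deposited by the authors are linear probe set intensities, 1 column per array, without pooling. The submitters' processing notes list MAS5, affy and R 3.1.3 but give no role for any. The sources used here do not say how the arrays were brought to 1 scale. Depth does not apply to arrays, and their number limits the precision.

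Of 49495 probe sets, 202 controls were left out, 1333 with several symbols were named for no gene and 2682 had no symbol. Symbols came from the platform annotation, updated through Entrez identifiers for 45208 of 45278 single-symbol probe sets. The deposited intensities were turned into log2(intensity + 16) and modelled in R 4.3.3 by limma 3.58.1, with hairpin as the only term, an intensity trend and 2 residual degrees of freedom, once as deposited and once with the median of the tested genes set to 0 on every array (the centred scale). The gene fit took the brightest probe set of a gene and the probe set fit took all 49293. Values of a gene's brightest probe set are from the gene fit, and those of other probe sets from the probe set fit. P-values were two-sided, adjusted by the Benjamini-Hochberg method. As deposited, limma's prior had infinite degrees of freedom. The SEs and p-values on that scale therefore do not use a gene's own duplicate spread, and the smallest p-values are unreliable as numbers. On the centred scale the prior had 7.86. The fit was tested on simulated data with independent noise in each gene and no shift common to an array. The arrays here differ in that, with the median tested gene 0.48 higher with shBORIS, so that test does not bear on the scaling.

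Genes named are the members, CTCFL, up to 4 tested genes of each pathway list with the smallest p on centred arrays, and the nearest profiles of HES1 and NOTCH3. The marker genes named were chosen after their values were seen. Values of other pathway genes, marker genes and nearest profiles are those of the brightest probe set. Many of these genes have several probe sets, and the others were not compared. The members and lists were chosen with earlier results of these data known. Alternatives changed the pseudocount, the filter, the summary of probe sets, the scaling and the block, and left out each array in turn.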

Additional observations from a re-analysis of the deposited data

How the results depend on the processing

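With 2 arrays a group, leaving 1 out assumes that the lone array varies like the other group. The count of member genes lower as deposited was 0 with the mean of probe sets and 0 to 1 when arrays were left out in turn, with 0 without shBORIS replicate 1. The count higher as deposited was 4 to 6 then. On the centred scale, 1 member rose after quantile normalization and 2 to 3 with arrays left out. The fallen members numbered 2 without a filter, 2 after centring on all cellular probe sets, which moves the median gene by 0.15, and 2 to 4 with arrays left out, with 2 without shLUC replicate 2. Of member probe sets, 1 was lower as deposited with the filter and 0 to 2 with arrays left out (0 without shBORIS replicate 1 and 1 without shLUC replicate 2), and 11 to 15 were higher then. Centred falls numbered 5 with the filter, 7 after quantile normalization, an alternative chosen after seeing the data, and 15 to 17 with arrays left out, and rises 5 to 7. Of the other pathway genes 27 rose and 16 fell after centring on all cellular probe sets, also chosen after seeing the data, where 45.6% of all genes tested rose and 17.4% fell, while 14 to 16 rose and 18 to 22 fell with arrays left out. NOTCH3 was 0.0266 as deposited with the mean of probe sets. HES6 was 0.0184 without a filter and 0.0486 after centring on all cellular probe sets, on the centred scale. NOTCH2 fell on the centred scale with a pseudocount of 64 (-0.23; limma adjusted p = 0.009). The centred fall of NOTCH3 passed the test under all 12 alternatives, at -0.89 to -0.41. The mean of probe sets and the stricter filter at the 60th percentile tested fewer members than 9. With the filter 17 of the 34 member probe sets were tested, so those counts have a smaller base. Of all cellular probe sets 14.5% fell after quantile normalization, beside 46.1% on the centred scale. Of all genes tested 29.4% rose after quantile normalization and 27.9% fell without a filter. For calls lost, the cause was not tested.

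With the replicate number as a block, 5 member genes were higher and 1 lower as deposited, and 3 rose and 4 fell on the centred scale. Of member probe sets, 14 were higher and 2 lower as deposited, and 7 rose and 17 fell on the centred scale, while 17 other pathway genes rose and 22 fell. The deviations of same-numbered arrays correlated at 0.098 across 10946 genes. With 2 pairs this cannot show whether same-numbered arrays shared more than a number. Low signal over background limits what JAG1, NOTCH2 and HES1 can show.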
